A study of Mus musculus with 8 samples.

Results

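Extraembryonic mesenchyme cells were examined in single-cell RNA-seq libraries of chimeric mouse embryos at embryonic day (E) 8.5. A cell was a member when it had at least 1 UMI (unique molecular identifier, 1 counted RNA molecule) in at least 3 of the 5 markers Postn, Lum, Tdo2, Colec11 and Smoc2, and 0 UMIs of Tbx4, the T-box factor of the allantois. Of 37211 kept cells at E8.5, 1498 were members, in a series of 49866 kept cells. The E8.5 libraries were 4 of Tet-TKO cells and 2 of WT host cells. Tet-TKO cells descended from 1 ES cell line of mixed C57BL/6J-129Sv background that lacked Tet1, Tet2 and Tet3 and carried an H2B-tdTomato reporter under the CAG promoter. The line was injected into C57BL/6J blastocysts at E3.5, which were carried by CD1 females. WT host cells were the tdTomato-negative cells of the resulting chimeras, so both groups developed in mosaic embryos. Strain background and injected origin therefore went with genotype, and their effects cannot be told apart. Embryos were pooled before sorting, and pooling is not tied to animals in the labels, so p-values measure the spread between libraries.

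Extraembryonic mesenchyme arises from mesoderm that leaves the posterior primitive streak and lines the yolk sac, amnion and chorion. It lays down collagen-rich matrix, secretes growth factors towards the adjoining epithelium, and surrounds the first blood and vessels of the yolk sac. TET enzymes oxidise methylated cytosine at CG dinucleotides and thereby open a route to its removal. The comparison of Tet-TKO with WT host cells asked how loss of these enzymes changed the mesenchyme that formed in a shared embryo.

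The 6 libraries held 65601218 to 136982886 UMIs each. In order of library number, Tet-TKO contributed 372, 464, 182 and 92 members, and WT host contributed 151 and 237. Their median UMI counts were 20004.5, 11884.5, 38110.5 and 63586 in Tet-TKO and 16027 and 13353 in WT host, so Tet-TKO libraries 3 and 4 were read more deeply per cell. Summed over members, the Tet-TKO libraries formed like pairs: the chi-square per degree of freedom was 2.85 between libraries 1 and 2, 3.40 between 3 and 4 and 18.9 to 24.2 across the pairs. It was 2.63 between the WT host libraries, but the value grows with the UMIs summed. Those were 2666268 and 3499437 in WT host and 6002593 to 8167640 in Tet-TKO. The correlation of log-scaled counts was 0.988 between Tet-TKO libraries 1 and 2, 0.985 between 3 and 4 and 0.975 between the WT host libraries. Whether paired libraries came from a common pool of embryos is not given in the sources used here. Between 0 and 26 cell barcodes were shared by any pair of libraries, at most 0.434% of the smaller library, and 0 of them were members in both. At least 1 tdTomato UMI was found in 63.8% to 96.7% of Tet-TKO members and in 1.32% and 2.11% of WT host members. Counts at the 3' ends of Tet1, Tet2 and Tet3 do not check the label, since the deleted part is not stated. Xist stood at 0.367 to 4.81 CPM (a gene's count per 1000000 UMIs summed over the members) in Tet-TKO and at 270 and 195 in WT host, and Y-linked Eif2s3y at 1.12 to 2.57 against 15.8 and 18.3. Y-linked Ddx3y was at 0 to 5.14 against 13.9 and 23.4, and Kdm5d at 1.47 to 2.56 against 2.63 and 5.14. Y-linked Uty overlapped, at 4.16 to 5.83 against 3.38 and 4.57, and of 6 tested sex-linked genes 2 lay above 0 and 4 below. Tet-TKO values lay wholly lower for 4 of them and wholly higher for 1, beside 14.2% and 16.0% of all genes. Sex-linked expression therefore also went with genotype, and its effects cannot be told apart.

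The members had a strong collagen and matrix profile. Ratios of members to other cells describe cells picked by such genes and carry no test. The largest mean ratios of members to all other kept cells of a library, on the log2(CPM + 1) scale, belonged to the rule's own Lum (5.91), a collagen-binding proteoglycan, Postn (5.69), the matrix protein periostin, and Tdo2 (5.15), tryptophan dioxygenase. Outside the rule the order was led by Col3a1 (4.60), a fibrillar collagen, Ccn4 (4.42), a secreted matricellular protein of the CCN family, Cavin2 (4.25), a coat protein of caveolae, and Col5a2 (4.0), a collagen of thin fibrils. Gas6, the secreted ligand of TAM receptors, had a mean ratio of 3.44. Genes of extraembryonic mesoderm that the rule did not use were also high, with mean ratios of 2.68 for Hand1, 2.07 for Bmp4 and 2.09 for Foxf1. Acta2, smooth muscle actin, had a mean ratio of 2.77 and the keratin Krt8 one of 2.18. Sox2 was at 3.75 to 8.65 CPM in members, against 149.8 to 304 CPM in neural cells, which were picked by UMIs of at least 3 of Sox1, Sox2, Sox3, Pax6 and Hes5.

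**Figure D1:**
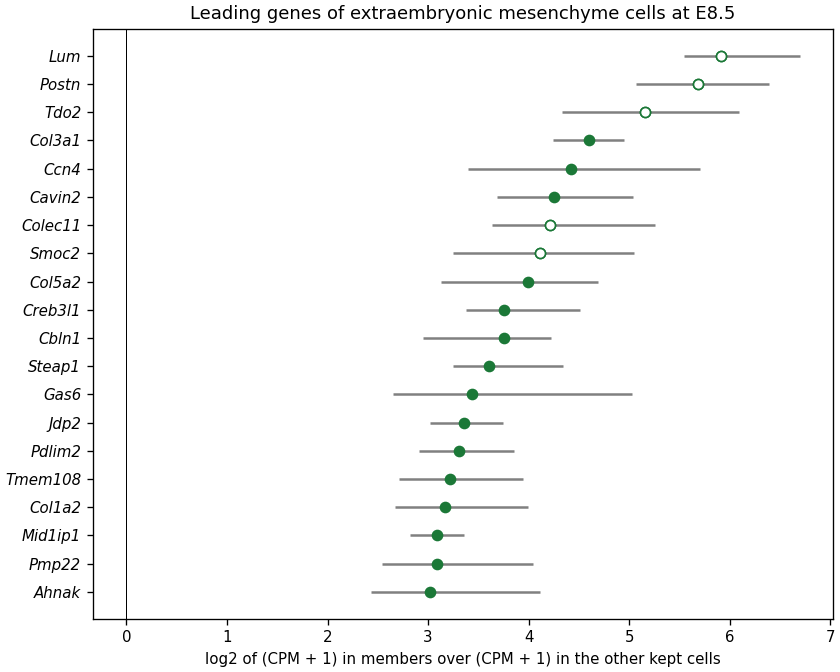
Genes with the largest ratio of member to other kept cells. The x axis is the log2 ratio of CPM + 1, points are means over the 6 libraries, lines run from the lowest to the highest library, and open circles are the 5 markers of the rule. Lum and Postn lead, and Col3a1, Ccn4 and Cavin2 are the highest genes outside the rule.

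Markers were detected unevenly among members. A UMI of Lum was present in 68.9% to 93.1% of members of a library, of Smoc2 in 81.3% to 94.5%, of Colec11 in 67.7% to 85.2%, of Postn in 53.8% to 86.9% and of Tdo2 in 40.5% to 71.5%. Exactly 3 markers were seen in 37.4% to 48.1% of members and all 5 in 16.9% to 31.5%. Cells just outside the rule, with 2 markers, numbered 208, 279, 121 and 56 in Tet-TKO and 96 and 106 in WT host, against 179, 202, 68 and 39 and 68 and 91 cells just inside it with 3. Lum averaged 46.5, 197, 47.1 and 30.1 CPM and 25.0 and 60.9 CPM just outside, and 162, 408, 143 and 122 CPM and 109 and 242 CPM just inside. Hand1, which the rule did not use, was at 498, 395, 135 and 109 CPM and 595 and 605 CPM just outside, and at 534, 486, 234 and 256 CPM and 826 and 806 CPM just inside. It was 18.6 to 92.4 CPM in cells with 0 markers, below the cells just outside the rule in every library. In neural cells, which should lack these genes, 0.175% to 0.450% met the rule at median depths of 13280 to 75282 UMIs. At E7.5 the rule was met by 18 cells in each library, all with exactly 3 markers, and these were not counted as members.

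Members made up a larger share of the Tet-TKO libraries. Of the kept cells, 5.28%, 4.86%, 7.90% and 9.09% met the rule in Tet-TKO, beside 1.83% and 2.62% in WT host, and the groups did not overlap. The means were 6.78% ± 2.04 (SD, n = 4) and 2.23% ± 0.562 (SD, n = 2), a 3.05-fold ratio (two-sided exact permutation test, p = 0.133, the smallest that 4 against 2 libraries can give). Detection of 3 markers depends on depth, so each cell was also thinned to 5000 UMIs, which left out 284, 517, 76 and 91 shallower cells in Tet-TKO and 553 and 724 in WT host. The thinned shares were 1.73%, 2.52%, 2.24% and 1.74% in Tet-TKO and 0.895% and 1.58% in WT host, still without overlap, at means of 2.06% ± 0.392 (SD) and 1.24% ± 0.481 (SD) and a 1.67-fold ratio (exact permutation p = 0.133). Erythroid cells filled 0% to 0.395% of Tet-TKO and 6.21% and 19.6% of WT host libraries, which alters the denominator. With erythroid cells also left out of the thinned cells, 2 of 4 Tet-TKO libraries lay above both WT host libraries and the ratio was 1.41-fold (exact permutation p = 0.4).

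**Figure D2:**
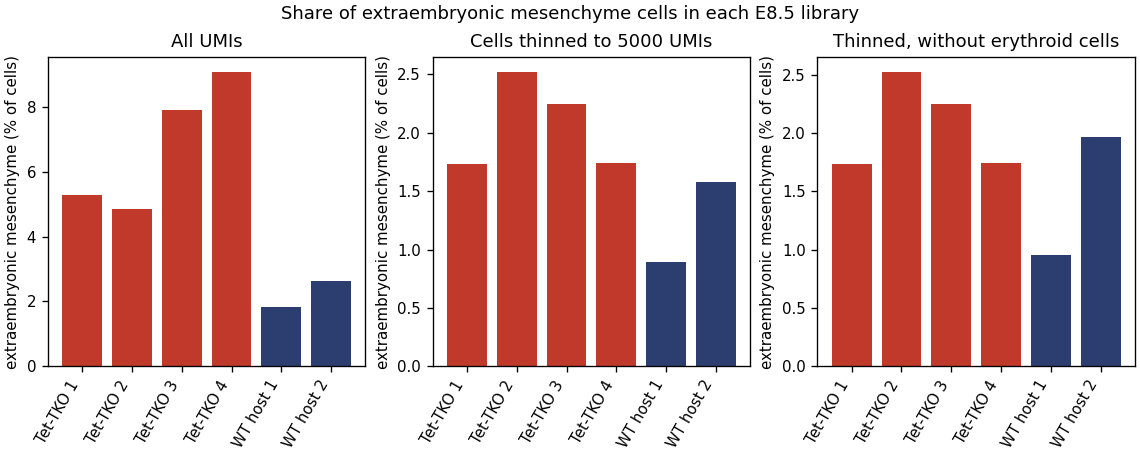
Share of members by library. The y axis is the percent of cells that met the rule, and each bar is a library. Panels show cells unthinned, thinned to 5000 UMIs per cell, and thinned without erythroid cells. All 4 Tet-TKO libraries lie above both WT host libraries unthinned and, with a smaller gap, after thinning. Without erythroid cells 2 of 4 do.

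Within the members, Tagln of the smooth-muscle cytoskeleton, Col4a2 of basement membranes and the mesothelial gene Krt19 were among the genes lower in Tet-TKO cells. UMIs were summed over the members of each library and 12287 genes were tested with the quasi-likelihood test of edgeR. A gene was called at a Benjamini-Hochberg adjusted p of at most 0.01 and an absolute log2 fold change of at least 1. By that rule 20 genes were higher in Tet-TKO members (0.163% of those tested) and 67 lower (0.545%), and the median log2 fold change of all genes was 0.02. The higher genes included the tdTomato reporter itself, and the lower ones Xist, Eif2s3y, the globin Hbb-bs and Ttr. Values of the groups did not overlap for 1965 genes in the higher direction (16.0%) and 1747 in the lower (14.2%). Without WT host library 1, 2 genes were called in each direction, and without library 2 none was, with 1150 genes at an unadjusted p under 0.05. Without Tet-TKO library 3 the counts were 7 higher and 39 lower, without library 1 they were 12 and 61, without library 2 they were 11 and 64, and without library 4 they were 25 and 97. In fits chosen after the data were seen, summing Tet-TKO library 1 with 2, and 3 with 4, gave 6 and 47, with 44 of the 87 still called, and leaving out libraries 1 and 2 together gave 494 higher and 466 lower.

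Prss35, Tac2, Plac8 and Asb4 were among the named lower genes with the largest differences. Groups that did not overlap were a condition for this choice, which also holds for Ccn4, Tek, Me1 and G0s2 below. Prss35, which encodes a serine protease family member (mm10, chr9:86743649-86758443, + strand), stood at 4.04, 8.65, 5.49 and 5.16 CPM in the 4 Tet-TKO libraries, in order of number, and at 74.3 and 84.3 CPM in both WT host libraries. The 4 Tet-TKO values lay far below both WT host values, with a log2 fold change of -3.83 (SE 0.25, edgeR adjusted p = 0.000602). Tac2, the neurokinin B precursor gene (chr10:127724478-127731768, +), was at 7.96, 18.1, 6.93 and 4.83 CPM in Tet-TKO and 92.3 and 85.7 CPM in WT host, with library 2 the highest of the Tet-TKO libraries and no overlap (log2 fold change -3.28, SE 0.42, edgeR adjusted p = 0.0068). The levels of Plac8, a small cysteine-rich protein gene named for its placental expression (chr5:100553725-100572245, -), were 69.7, 60.9, 39.2 and 29.7 CPM against 366 and 362 CPM. The highest Tet-TKO library lay far below the lower WT host library, and the log2 fold change was -2.90 (SE 0.33, edgeR adjusted p = 0.00412). Asb4, an imprinted gene for a ubiquitin ligase adaptor (chr6:5383386-5433022, +), was at 17.3, 13, 15 and 16.7 CPM against 100.1 and 121 CPM, with a narrow spread in Tet-TKO (log2 fold change -2.88, SE 0.16, edgeR adjusted p = 0.000193). It was 1 of 3 of all 87 called genes (0.708% of those tested) still called without WT host library 1, beside Rps3a1 and Rps15a-ps8.

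The regions upstream of these genes are shown to describe their CG dinucleotides. By single-cell methylation profiling of erythroid and some other cells, the study found that distal elements lost methylation through TET, while promoters were barely affected. Each sequence gives the 250 bases before the RefSeq start of transcription (GRCm38.p6), 5′ to 3′ on the strand of the gene, with each CG in capitals. Prss35 at chr9:86743383-86743632 (+) held 8 CG, Tac2 at chr10:127724228-127724477 (+) held 2, and Tek at chr4:94739039-94739288 (+) held 2.
Prss35: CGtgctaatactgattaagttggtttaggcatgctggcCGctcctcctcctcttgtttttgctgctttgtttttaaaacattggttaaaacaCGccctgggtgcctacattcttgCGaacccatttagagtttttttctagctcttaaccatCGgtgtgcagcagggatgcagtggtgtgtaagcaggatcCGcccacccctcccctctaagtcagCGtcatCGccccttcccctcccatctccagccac
Tac2: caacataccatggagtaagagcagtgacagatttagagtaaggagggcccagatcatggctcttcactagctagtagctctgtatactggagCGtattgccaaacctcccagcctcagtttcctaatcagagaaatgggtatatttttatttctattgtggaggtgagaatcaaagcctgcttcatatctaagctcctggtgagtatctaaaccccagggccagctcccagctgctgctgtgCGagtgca
Tek: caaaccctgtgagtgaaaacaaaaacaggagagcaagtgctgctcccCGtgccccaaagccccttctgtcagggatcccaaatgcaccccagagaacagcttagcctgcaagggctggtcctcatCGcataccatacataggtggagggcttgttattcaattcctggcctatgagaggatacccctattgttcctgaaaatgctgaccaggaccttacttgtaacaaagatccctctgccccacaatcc
Of 20 named lower genes 15 had an entry in the RefSeq table, with 18 promoters and a median of 8 CG (2 to 26). They included the sex-linked Xist and Eif2s3y, the globin Hbb-bs and Rps3a1, with 11, 10, 2 and 19 CG. Over all 32851 promoters the median was 6 CG and 92.1% held at least 1. No methylation was measured in these libraries, and the counts describe the sequence alone.

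Ccn4, Tek, Me1, G0s2 and Cavin2 were lower as well. Ccn4, the leading gene outside the rule after Col3a1 (chr15:66891320-66923201, +), was at 13.2, 30.3, 28.4 and 18.3 CPM in Tet-TKO and 103 and 147 CPM in WT host (log2 fold change -2.54, SE 0.29, edgeR adjusted p = 0.00412). Its lower WT host value lay well above its highest Tet-TKO value. Tek, the TIE2 receptor of angiopoietins best known from endothelium (chr4:94739289-94874976, +), stood at 11.4, 17.8, 16.1 and 16.2 CPM against 55.9 and 68.0 CPM without overlap (log2 fold change -2.08, SE 0.18, edgeR adjusted p = 0.00145). The list of endothelial markers summed to 57.9 to 61.0 CPM in Tet-TKO members and to 122 and 119 CPM in WT host members, and of its 8 tested genes 1, Tek, was called, beside 0.545% of all genes called lower. In that list 4 genes lay wholly lower in Tet-TKO, beside 14.2% of all genes. Me1, the cytosolic malic enzyme that supplies NADPH, was at 23.3, 35.7, 27.9 and 28.3 CPM against 107 and 119.7 CPM (log2 fold change -2.04, SE 0.17, edgeR adjusted p = 0.00145). G0s2, an inhibitor of triglyceride lipase, had 9.18, 15.1, 10.9 and 6.50 CPM against 60.4 and 53.4 CPM (log2 fold change -2.50, edgeR adjusted p = 0.00412), and both genes separated the groups. Cavin2 of the caveolar coat was at 34.3, 43.4, 50.2 and 34.7 CPM against 95.6 and 112 CPM (log2 fold change -1.41, edgeR adjusted p = 0.00504). Of 19 alternatives the call was lost in 1 for Asb4, in 2 each for Prss35, Plac8, Ccn4, Tek and Me1, in 3 each for G0s2 and Cavin2 and in 4 for Tac2.

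Tmem158, Nkx2-3, Pdlim4 and Arpc1b were higher in Tet-TKO members. Tmem158, a Ras-induced membrane protein gene (chr9:123259053-123260764, -), was at 331, 306, 270.1 and 320.2 CPM in Tet-TKO and 73.9 and 46.6 CPM in WT host. All 4 Tet-TKO libraries were close to each other and far above both WT host libraries, at a log2 fold change of 2.30 (SE 0.24, edgeR adjusted p = 0.00318). Nkx2-3, a homeobox factor of visceral mesoderm (chr19:43612325-43615892, +), was at 19.5, 27.7, 37.1 and 29.0 CPM against 7.13 and 6.29 CPM (log2 fold change 2.01, SE 0.27, edgeR adjusted p = 0.00879). Pdlim4, a PDZ and LIM domain protein that binds the actin cytoskeleton (chr11:54054928-54069014, -), was at 39, 41.3, 45.8 and 43.8 CPM against 16.9 and 10.0 CPM (log2 fold change 1.62, SE 0.22, edgeR adjusted p = 0.00921). Groups that did not overlap were a condition for naming these genes. Leaving out either WT host library ended the call of each. Over all alternatives the call was lost in 2 of 19 for Tmem158, 8 of 19 for Nkx2-3 and 9 of 19 for Pdlim4. Arpc1b, an actin-nucleating Arp2/3 subunit, was at 55.6, 55.0, 67.9 and 63.6 CPM against 29.6 and 28.3 CPM (log2 fold change 1.00, edgeR adjusted p = 0.00905). Its fold lay at the threshold itself, and its call was lost in 14 of 19 alternatives.

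Of 9 named higher genes, 5 had a RefSeq entry, with a median of 3.5 CG over 8 promoters. Snrpn and Snhg14, of the same imprinted region, held 2 to 4 CG at each of their promoters and share a promoter entry. The other genes held 14 to 21 CG, so the low median reflects that region. The upstream 250 bases of Nkx2-3 at chr19:43612075-43612324 (+) held 14 CG and those of Pdlim4 at chr11:54069018-54069267 (-) held 21, and they are shown as the CG-rich examples, with each CG in capitals.
Nkx2-3: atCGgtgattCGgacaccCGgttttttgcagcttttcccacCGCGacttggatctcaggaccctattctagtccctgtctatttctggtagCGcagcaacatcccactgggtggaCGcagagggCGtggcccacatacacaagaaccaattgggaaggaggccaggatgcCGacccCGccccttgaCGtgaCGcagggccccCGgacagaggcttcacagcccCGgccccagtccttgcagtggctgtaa
Pdlim4: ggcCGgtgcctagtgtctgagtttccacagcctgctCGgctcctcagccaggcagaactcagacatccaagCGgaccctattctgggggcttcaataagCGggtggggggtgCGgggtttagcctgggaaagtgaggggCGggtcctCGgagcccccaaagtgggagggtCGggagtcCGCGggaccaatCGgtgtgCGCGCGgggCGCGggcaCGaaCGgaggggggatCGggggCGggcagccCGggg

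Some called genes have near-identical copies elsewhere in the genome, between which reads can be assigned either way. Rps3a1, a ribosomal protein gene, was at 266, 277, 402 and 221 CPM in Tet-TKO and 4215 and 4297 CPM in WT host (log2 fold change -3.93, edgeR adjusted p = 0.000193). Its log2 fold changes in allantois cells and in other extraembryonic mesoderm cells of the same libraries were -4.19 and -3.95, so the difference was not limited to the mesenchyme. Rps13-ps1, Rps15a-ps8 and the initiation factor gene Eif3j2 were higher by 3.54, 3.05 and 2.66 on the log2 scale. All 4 are uncertain for this reason, and a difference between strains in such copies cannot be told apart from genotype.

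**Figure D3:**
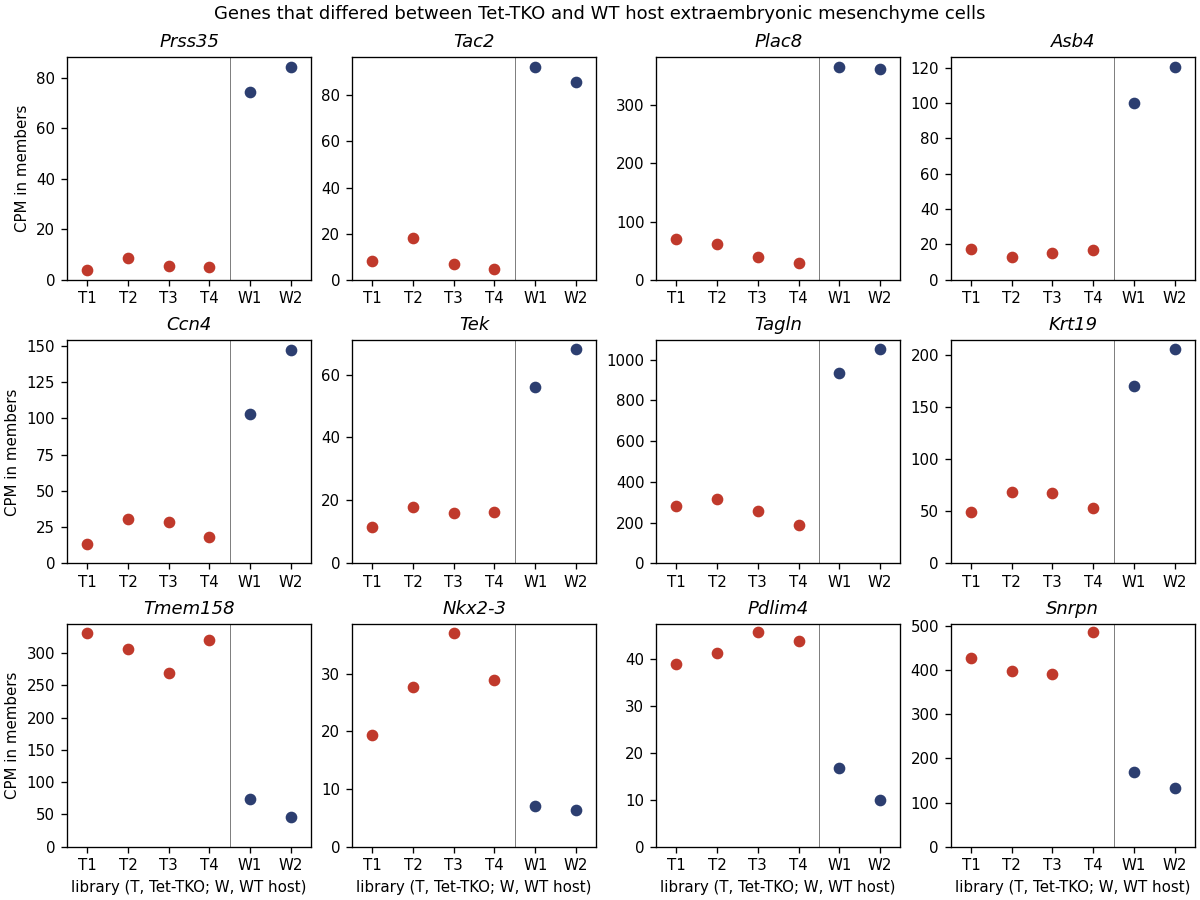
Levels of 12 named genes by library. The y axes are CPM of the members' sum, each point is a library, T1 to T4 are Tet-TKO and W1 and W2 are WT host. Prss35, Tac2, Plac8, Asb4, Ccn4, Tek, Tagln and Krt19 lie lower in all 4 Tet-TKO libraries, and Tmem158, Nkx2-3, Pdlim4 and Snrpn higher.

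The contractile list of 22 cytoskeletal and smooth-muscle genes leaned towards lower values in Tet-TKO members. Of 21 tested genes 1 was called lower and 0 higher, beside 0.545% and 0.163% of all genes. In the list 16 had a log2 fold change below 0 and 5 above, and the median was -0.63 beside 0.02 over all genes. For 15 genes the Tet-TKO values lay wholly under the WT host values, beside 14.2% of all genes. Their summed level was 7341, 7449.8, 6696 and 6166 CPM in Tet-TKO and 11022 and 11408 CPM in WT host, without overlap. Tagln, the actin-binding protein transgelin (chr9:45929619-45936058, -), was at 281, 314, 255 and 186 CPM against 935 and 1052 CPM (log2 fold change -1.98, SE 0.22, edgeR adjusted p = 0.00412), a call lost in 3 of 19 alternatives. Acta2 was at 886, 1026, 772 and 654 CPM against 2201 and 2233 CPM with a log2 fold change of -1.45, but its edgeR adjusted p of 0.0102 missed the threshold. Cnn1, calponin, had -1.53 and Myl9, the regulatory myosin light chain, had -1.02 at adjusted p of 0.0343 and 0.0621. Des, the muscle intermediate filament desmin, went the other way at 1.56 with an adjusted p of 0.0539.

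Smooth muscle genes are known targets of serum response factor, which binds the CArG box. A box was counted only in the strict form CCWWWWWWGG, where W is A or T. Of the 22 listed genes 17 had a RefSeq entry, and 5 of their 19 upstream regions of 250 bases (26.3%) held a CArG box of this form on either strand, beside 1.47% of all 32851. The 5 belonged to Acta1, Actc1, Cnn2, Myl9 and Srf, and the examples show Actc1 (chr2:114052876-114053125, -) and Myl9 (chr2:156775214-156775463, +) with the box in capitals.
Actc1: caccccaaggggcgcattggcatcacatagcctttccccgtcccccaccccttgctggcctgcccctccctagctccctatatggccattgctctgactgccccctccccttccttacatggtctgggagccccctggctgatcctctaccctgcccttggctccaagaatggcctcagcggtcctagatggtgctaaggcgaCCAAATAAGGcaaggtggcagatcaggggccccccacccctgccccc
Myl9: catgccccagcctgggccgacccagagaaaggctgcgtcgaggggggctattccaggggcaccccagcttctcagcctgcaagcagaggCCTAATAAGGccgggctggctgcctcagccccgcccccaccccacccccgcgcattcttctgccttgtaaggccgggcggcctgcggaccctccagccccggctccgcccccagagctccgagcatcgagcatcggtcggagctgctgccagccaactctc
Actc1, cardiac actin, was at 15.1, 11.5, 30.2 and 49.8 CPM in Tet-TKO and 182 and 53.4 CPM in WT host members, and Myl9 at 104, 129, 92.1 and 72.0 CPM against 178 and 213 CPM, neither past the threshold. None of the 5 genes with a box was called. The regions of Acta2 and Cnn1 held no box of the strict form, Tagln had no entry, and 0 of 18 promoters of the named lower genes held one. Boxes with a G or C at a W position were not searched for, so these regions may hold such boxes. A match to the box describes these letters only.

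Matrix genes leaned lower as well. Of 41 tested genes 2 were called lower and 0 higher, beside 0.545% and 0.163% of all genes. In the list 32 lay below 0 and 9 above, and the median log2 fold change was -0.54. Tet-TKO values lay wholly below those of WT host for 20 genes and above for 3, beside 14.2% and 16.0% of all genes. Fbln2, the elastic-fibre protein fibulin 2, was at 4.65, 3.85, 5.49 and 5.83 CPM in Tet-TKO and 21.8 and 21.4 CPM in WT host (log2 fold change -2.18, SE 0.20, edgeR adjusted p = 0.002). At 5000 UMIs per cell Fbln2 and Col4a2 no longer passed. Col4a2, a basement membrane collagen, was at 33.3, 30.4, 38.7 and 31.5 CPM against 69.8 and 84.9 CPM (log2 fold change -1.26, SE 0.14, edgeR adjusted p = 0.00412), and its call was lost in 5 of 19 alternatives. Col1a1, the main fibrillar collagen, was at 23.4, 46.0, 97.7 and 82.6 CPM against 206 and 382 CPM, with a wide spread in Tet-TKO and an adjusted p of 0.0278. The collagen chaperone gene Serpinh1 and Sparc, which binds collagen, had log2 fold changes of -0.99 and -1.06 at adjusted p of 0.0148 and 0.0125. Col3a1 was at 87.4, 263, 471 and 475 CPM against 91.9 and 178 CPM, where Tet-TKO library 1 lay below both WT host libraries and libraries 3 and 4 far above them. Nid1, a linker of basement membranes, had 1.04 (adjusted p = 0.0349).

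Mesothelial genes leaned lower too. Of 10 tested genes 2 were called lower and 0 higher, beside 0.545% and 0.163% of all genes, 7 lay below 0 and the median log2 fold change was -0.70. Tet-TKO values lay wholly below those of WT host for 6 genes and above for 0, beside 14.2% and 16.0% of all genes. Upk1b, a uroplakin of mesothelium, was at 0.490, 1.44, 2.62 and 1.17 CPM in Tet-TKO and 21.8 and 32.3 CPM in WT host (log2 fold change -4.29, SE 0.40, edgeR adjusted p = 0.00201). Krt19, an epithelial keratin, was at 49.5, 68.4, 67.6 and 53.3 CPM against 171 and 207 CPM (log2 fold change -1.72, SE 0.16, edgeR adjusted p = 0.00201). Neither gene overlapped between the groups. Upk1b passed the filter on low counts only through its WT host levels, so only a lower call was possible for it. Upk3b and the mesothelial factor Wt1 had log2 fold changes of -1.79 and -1.86 at adjusted p of 0.0249 and 0.0172, while the abundant keratins Krt8 and Krt18 had -0.82 and -0.57.

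Of 34 tested transcription factors of extraembryonic and lateral mesoderm 0 were called, beside 0.163% called higher and 0.545% called lower of all genes. In the list 21 lay above 0 and 13 below, the median log2 fold change was 0.23, and Tet-TKO values lay wholly above those of WT host for 11 and wholly below for 6, beside 16.0% and 14.2% of all genes. Hand1, required in extraembryonic mesoderm, was at 571, 540.4, 331 and 299 CPM in Tet-TKO and 852 and 879 CPM in WT host, without overlap but with an adjusted p of 0.13. Foxf1, a forkhead factor of splanchnic and extraembryonic mesoderm, had a log2 fold change of 0.19, and its relative Foxf2 had 1.65 (adjusted p = 0.0141). Twist1, Meis2 and Tbx2 had 0.78, 1.01 and 1.72 at adjusted p of 0.0457, 0.0299 and 0.0714. Within the Tet-TKO group Nr2f1, an orphan nuclear receptor, was at 12.1 and 9.78 CPM in libraries 1 and 2 and at 47.9 and 73.3 CPM in libraries 3 and 4.

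Hox genes differed by cluster, a split that was made after their values were seen and is given without a test. Of 26 tested genes 0 were called, beside 0.163% called higher and 0.545% called lower of all genes, and the median log2 fold change was 0.42. In the Hoxb cluster 8 of 9 genes lay below 0 (median -0.59), and their summed level was 240, 243, 302 and 330 CPM in Tet-TKO and 406 and 435 CPM in WT host, without overlap. All 4 tested Hoxd genes lay above 0 (median 1.14), at a sum of 45.5, 31.9, 43.7 and 46.0 CPM in Tet-TKO and 18.4 and 17.1 CPM in WT host. Hoxa and Hoxc had 6 of 7 and 5 of 6 genes above 0. Hoxb6 was the lowest of the list at a log2 fold change of -1.07 (adjusted p = 0.0172), and Hoxa5 the highest at 2.54 (adjusted p = 0.172), the latter with 5.63, 7.37, 25.0 and 30.8 CPM in the 4 Tet-TKO libraries.

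Genes of 3 signalling pathways were listed, with 0 called in each, beside 0.708% of all genes called in either direction. Of the BMP and TGF-beta pathway 30 genes were tested, with a median log2 fold change of 0.15, and 20 lay above 0. Tet-TKO values lay wholly higher for 7 of them and wholly lower for 3, beside 16.0% and 14.2% of all genes. The ligand Bmp4, which the mesenchyme presents to its neighbours, was at 259, 245, 199 and 192 CPM in Tet-TKO and 248 and 269 CPM in WT host, with overlapping groups. Bmp2 was at 46.3, 66.3, 45.8 and 45.6 CPM against 99.8 and 142 CPM (log2 fold change -1.29, edgeR adjusted p = 0.0172), and the BMP target Id3 at 469.5, 394, 515 and 617 CPM against 284 and 275 CPM (log2 fold change 0.77, edgeR adjusted p = 0.0457). Ligand and target stood on opposite sides of 0, and neither passed the threshold. Of 24 Wnt pathway genes 12 lay above and 12 below 0 (median -0.02), with the ligand Wnt2 at -1.24 (adjusted p = 0.0208). Of 10 hedgehog genes 7 lay above 0 (median 0.12), and the receptor and target Ptch1 was at 185, 207, 264 and 259 CPM against 122 and 120.3 CPM (log2 fold change 0.85, edgeR adjusted p = 0.0196). Gas1 of the same list went the other way (log2 fold change -0.99, edgeR adjusted p = 0.0694).

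Secreted factors and the genes of retinoid and tryptophan metabolism had medians of 0.03 over 22 genes and 0.09 over 14 genes, with 0 called, beside 0.708% of all genes. Of the secreted factors 9 lay wholly lower in Tet-TKO and 1 wholly higher, beside 14.2% and 16.0% of all genes, and of the metabolic genes 3 and 2 did. The summed level of the secreted list was 2055 to 2635 CPM in Tet-TKO and 3132 and 3525 CPM in WT host, and that of the metabolic list 298 to 378 CPM and 413 and 483 CPM, without overlap in either. The lymphatic growth factor Vegfc had a log2 fold change of 1.34 (adjusted p = 0.0186) and the vascular factor Vegfa -0.71 (adjusted p = 0.0455). Igfbp2, an abundant binder of insulin-like growth factors, was at 546, 716, 343 and 257 CPM against 1092 and 1177 CPM without overlap (adjusted p = 0.122). Glycolysis and hypoxia genes leaned lower with 0 called, beside the same share. Of 24 tested 21 lay below 0 (median -0.51) and 13 did not overlap in that direction, beside 14.2% of all genes. Slc2a1, the glucose transporter GLUT1, was at 1277, 1411, 680.4 and 523 CPM in Tet-TKO and 2205 and 2244 CPM in WT host, with the lowest values in Tet-TKO libraries 3 and 4 (adjusted p = 0.165). Gapdh and Ldha, the most abundant of the list, had log2 fold changes of -0.19 and -0.45.

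Among 32 tested imprinted genes 1 was called higher and 2 lower, beside 0.163% and 0.545% of all genes, with 16 on each side of 0 and a median of 0.01. Snrpn, a paternally expressed splicing protein gene of the Prader-Willi region (chr7:59982495-60140219, -), was at 427, 399, 391 and 487 CPM in Tet-TKO and 169.5 and 133 CPM in WT host, without overlap (log2 fold change 1.43, SE 0.18, edgeR adjusted p = 0.00566). Its call was lost in 4 of 19 alternatives. Snhg14, a non-coding transcript of the same region that lies outside the list, was at 102, 101, 94.9 and 101 CPM against 46.9 and 38.6 CPM (log2 fold change 1.17, edgeR adjusted p = 0.00905), a call that was lost in 10 of 19 alternatives. Ndn and Magel2 from that region had 0.87 and 2.04 at adjusted p of 0.0124 and 0.041. H13, an intramembrane protease gene, was at 35.4, 35.3, 36.7 and 31.2 CPM against 108 and 115 CPM (log2 fold change -1.74, SE 0.14, edgeR adjusted p = 0.000922), and Asb4 was the other lower gene. H19, Meg3 and Mest had -0.45, -0.43 and -0.19, none past the threshold.

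Of 9 tested genes of the DNA methylation machinery 0 were called, beside 0.708% of all genes. Their median was -0.01, and Dnmt1 and Uhrf1, the maintenance pair, had log2 fold changes of 0.20 and -0.01. Tet1 was at 8.20, 7.69, 12.3 and 14.0 CPM in Tet-TKO and 20.6 and 23.4 CPM in WT host (adjusted p = 0.0382), Tet2 at 6.37, 6.09, 15 and 14.3 CPM against 5.63 and 6.57 CPM, and Tet3 at 28.0, 28.0, 40.0 and 43.3 CPM against 26.3 and 26.3 CPM. Of 21 pluripotency and germline genes 9 passed the filter on low counts, with a median of 0.83 and 0 called, again beside 0.708%. The highest was X-linked Xlr3a, which has close copies that leave its counts uncertain, at 2.82, 2.72, 10.3 and 10.2 CPM against 1.13 and 0.572 CPM (adjusted p = 0.145). S-phase genes (20 tested, median 0.09) and G2/M genes (20 tested, median -0.05) had 0 calls, beside the same share.

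**Figure D4:**
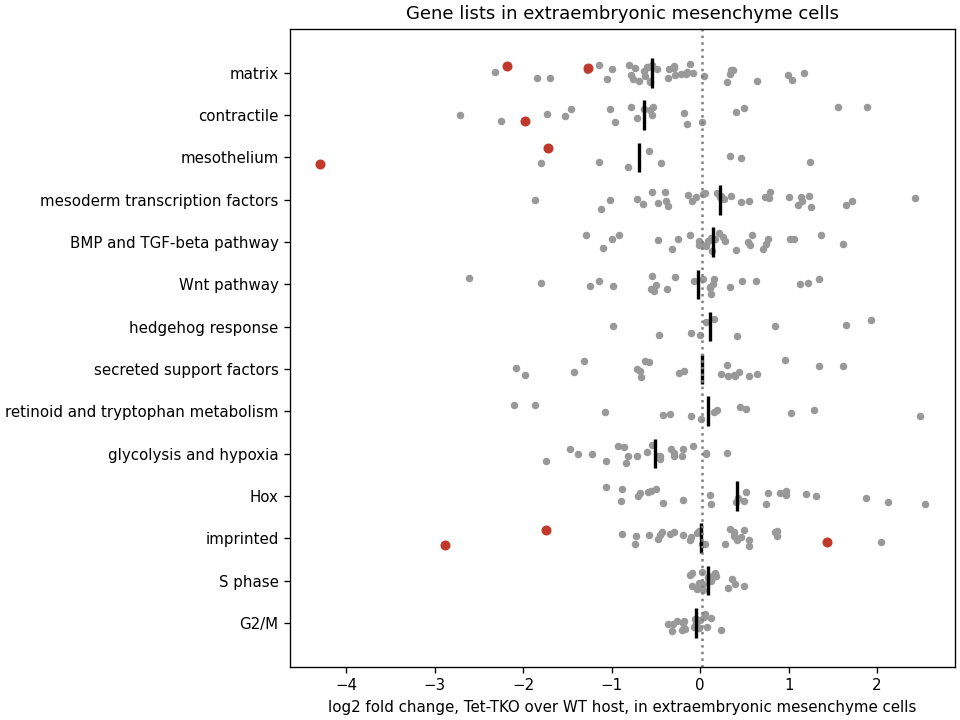
Log2 fold change of every tested gene of each list, Tet-TKO against WT host. The x axis is the fold change, each point is a gene, red points are called, black bars are list medians and the dotted line is the median of all genes, 0.02. Contractile (-0.63), matrix (-0.54), mesothelial (-0.70) and glycolytic (-0.51) medians lie to the left.

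Marker sums of some other cell types differed between genotypes in the members, while those of cardiomyocyte and allantois markers overlapped. Of 12 tested erythroid markers 1 was called lower, and of 7 cardiomyocyte markers 0, beside 0.545% of all genes. The called erythroid marker, Hbb-bs, passed the filter on low counts only through WT host. Erythroid markers summed to 333, 312, 51.0 and 6.0 CPM in Tet-TKO and to 3265 and 5071 CPM in WT host members, and at least 3 of the 12 were seen in 0% to 2.37% of Tet-TKO and in 71.5% and 97.0% of WT host members. At 5000 UMIs per cell those shares were 0% to 1.54% and 22.8% and 70.0%. Hba-x, an embryonic globin, was at 1605 and 2508 CPM in WT host members and at 1378 and 2685 CPM in WT host neural cells. The 7 tested cardiomyocyte markers had a median of -1.18, and summed to 93.6 to 280 CPM in Tet-TKO and 719 and 238 CPM in WT host members. Yolk sac endoderm markers summed to 11.8 to 20.8 CPM and 55.9 and 39 CPM, and Ttr, the 1 gene called lower of the 7 tested in that list beside 0.545% of all genes, was at 18.4 and 17.4 CPM in WT host members against 82.5 and 41.6 CPM in WT host neural cells. Decidua markers, which would mark maternal cells, summed to 60 to 161 CPM and 287 and 354 CPM, of which Cryab made up 108, 160.1, 85.8 and 59.3 and 287 and 354. Immune markers summed to at most 4.29 CPM and allantois markers to at most 4.97 CPM. Trophoblast markers, mostly Cdx2 counts, summed to 36.1 to 60.2 CPM in Tet-TKO and to 24.4 and 9.14 CPM in WT host members. The part of these transcripts in the differences was not tested. For haemoglobin alone, a limit of under 1% of a member's UMIs, set after the data were seen, left 78 of the 86 called genes still tested above the threshold. The WT host members as a whole already lay under that limit, so this fit cannot show the part of erythroid RNA.

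The genotype difference in the members was set against that in the most similar cells of the same libraries, by an interaction term. Tbx4 allantois cells (4412) had UMIs of Tbx4 and of at least 1 of Hoxa10, Hoxa11, Hoxa13 and Hoxc10. Hand1 Bmp4 Foxf1 mesoderm cells (3096) had UMIs of all 3 genes and none of Tbx4, and both sets had fewer than 3 of the mesenchyme markers. That difference was itself different from allantois in 146 of 13618 genes, 42 more positive in the mesenchyme (0.308%) and 104 more negative (0.764%), or 1.07% in all, at an adjusted p of at most 0.05 and a difference of at least 1. Among genes of at least 20 CPM on average, Tmem158 led the first group. Its log2 fold change was 2.30 in mesenchyme and 0.04 in allantois, a difference of 2.29 (SE 0.16, edgeR adjusted p = 7.14e-05). Among the lower genes, Tac2 had -3.28 in mesenchyme and 0.08 in allantois (difference -3.29, adjusted p = 0.011). Tac2 averaged only 0.896 CPM in Tet-TKO and 0.958 CPM in WT host allantois cells, and the SE of its 0.08 was 0.81, so the 0.08 does not show an unchanged gene. Me1 had -2.04 and -0.27 (difference -1.77, adjusted p = 0.000147). Plac8 had -2.90 and -1.46 (difference -1.43, adjusted p = 0.0096). Col4a2 had -1.26 and 0.29 (difference -1.52, adjusted p = 0.00829).

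Other genes separated the members from the allantois cells without being called in the members. Hspb8, a small heat shock protein gene, was at 13.1, 20.5, 12.6 and 8.66 CPM in Tet-TKO and 48.0 and 61.4 CPM in WT host members, with a log2 fold change of -2.04 beside 0.08 in allantois (difference -2.12, SE 0.24, edgeR adjusted p = 0.00167). Slc2a3, the glucose transporter GLUT3, was at 192, 187, 215 and 78.0 CPM against 504 and 590.4 CPM, and its log2 fold change of -1.75 stood beside 0.15 (difference -1.96, SE 0.33, adjusted p = 0.0119). Cxcl12, a chemokine, had -0.24 in the members and 1.73 in allantois (difference -1.98, SE 0.32, adjusted p = 0.00891). Hoxd9 was at 9.79, 6.25, 11.9 and 10.8 CPM against 2.25 and 2.0 CPM, at 2.13 beside 0.05 (difference 2.07, SE 0.44, adjusted p = 0.034). Prss35, Asb4, Rps3a1 and Snrpn had allantois log2 fold changes of -2.74, -3.09, -4.19 and 1.81, and none passed the test of the difference (adjusted p = 0.211 to 0.726). Cxcl12, Slc2a3 and Hoxd9 no longer passed when WT host library 1 or 2 was left out, nor did Hspb8 without WT host library 2.

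Against Hand1 Bmp4 Foxf1 mesoderm cells the genotype difference was different in 54 of 13413 genes, 31 more positive (0.231%) and 23 more negative (0.171%), or 0.403% in all. Sparcl1, a matricellular relative of Sparc, was at 17.1, 27.6, 27.6 and 31.2 CPM in Tet-TKO and 9.38 and 11.7 CPM in WT host members, with a log2 fold change of 1.21 beside -0.76 in the mesoderm cells (difference 2.0, SE 0.23, edgeR adjusted p = 0.00129). Tmem158 differed here too, at 2.30 against 0.75 (difference 1.56, SE 0.23, adjusted p = 0.00601), Tac2 by -1.98 (adjusted p = 0.031) and Hspb8 by -1.32 (adjusted p = 0.00558). Me1, Plac8, Slc2a3 and Cxcl12, which differed from allantois, did not pass here (adjusted p = 0.0553, 0.192, 0.101 and 0.136). Me1 and Plac8 were also lower in the mesoderm cells, at -1.29 and -2.19. Hoxd9 differed by 2.17 (SE 0.45, adjusted p = 0.035) and Rhox5, an X-linked homeobox gene, by 2.21 (SE 0.36, adjusted p = 0.00934). Rbp4 and Apoa1, carrier proteins made by yolk sac endoderm, differed by 3.81 (SE 0.39, adjusted p = 0.00116) and 3.82 (SE 0.75, adjusted p = 0.0259). Both were more abundant in neural cells of the WT host (Rbp4 67.2 and 30.1 CPM, Apoa1 51.8 and 27.1 CPM) than in WT host members (11.6 and 5.14 CPM, and 9.75 and 2.29 CPM). The part of free RNA in their differences was not tested. Without WT host library 1, 23 genes differed from allantois and 9 from mesoderm cells, and without library 2 it was 8 and 8. At 5000 UMIs per cell the counts were 63 and 11, and Hoxd9 in both comparisons and Sparcl1, Rbp4 and Rhox5 against mesoderm no longer passed, with the differences of Rbp4 and Rhox5 at 0.21 and 0.60. Apoa1 was not tested at that depth, and it lost its call without Tet-TKO library 2 and without WT host library 1 or 2. Rbp4 and Rhox5 also lost theirs without WT host library 1, Sparcl1 without WT host library 2 and Hoxd9 without either of them.

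The Tet-TKO libraries also varied among themselves in the members. Ccn1, a matricellular growth regulator, was at 28.5 and 25.5 CPM in libraries 1 and 2 and at 151 and 171 CPM in libraries 3 and 4, beside 50.3 and 39.4 CPM in WT host. Igfbp5 was at 19.7 and 19.2 CPM against 103 and 81.1 CPM in the same libraries, beside 21.4 and 12.9 CPM in WT host. Postn was at 66.2, 161, 169.8 and 160.4 CPM, with library 1 apart from the others, and 207 and 332 CPM in WT host. Gas6 was at 43.7, 61.7, 26.9 and 17.5 CPM in Tet-TKO, lowest in libraries 3 and 4, and at 171 and 238 CPM in WT host (log2 fold change -2.48, edgeR adjusted p = 0.0198). Lum was at 276, 592, 361 and 294 CPM and 288 and 465 CPM, with the groups overlapping. Postn and Lum belong to the rule, so their levels in members depend on the choice of members and on depth. Of the 15 leading genes outside the rule, 13 had a log2 fold change below 0 between the genotypes (median -0.63). In this set 2 were called lower (Ccn4 and Cavin2), beside 0.545% of all genes, and 7 did not overlap in the lower direction, beside 14.2%. Leading genes needed 50 CPM on the mean of all 6 libraries. Ccn4, Cavin2, Gas6 and Cbln1 averaged 22.6, 40.6, 37.5 and 49.4 CPM in Tet-TKO and met it only through WT host. The counts therefore follow in part from the choice and are no test.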

How the data were processed

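Single-cell RNA of sorted cells from pooled chimeric embryos was captured with 10x Genomics 3' v3 chemistry. The authors mapped reads to mm10 with Cell Ranger, with tdTomato among the features, and deposited the raw counts, as UMIs of each gene in each barcode, without normalisation. The header of the counts names software version 3.1.0, and the methods name another version. Positions come from GENCODE M21.

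The study's limits on cells were used, namely a minimum of 1500 UMIs and a maximum of 30% mitochondrial and 35% ribosomal UMIs. Doublets were not removed in the values given, and Scrublet (scanpy 1.11.5, Python 3.11.15, 0.8% per 1000 cells) served for an alternative. Counts were summed over the members of each library, since cells are not replicates, and tested with edgeR 4.0.16 in R 4.3.3 (filterByExpr, TMM, glmQLFit, glmQLFTest), with the 4 Tet-TKO and 2 WT host libraries and no covariate. DESeq2 1.42.0 was an alternative. Interactions used library, cell set and the product of cell set and genotype. Adjustment for multiple tests was by the Benjamini-Hochberg method over all tested genes. CPM were computed from the deposited counts. The test was checked on simulated counts of this comparison over 12287 genes: of 200 changed genes it called 57.5%, 68.5% and 85.0% at log2 changes of 1.5, 2 and 3, with 1, 3 and 2 false calls. Simulated libraries were independent of each other and lacked the like pairs of the Tet-TKO libraries. The number of false calls with such pairs is therefore not known.

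The named genes were the rule and label-check genes, the 10 largest called differences in each direction with non-overlapping groups and at least 20 CPM on average, up to 4 called genes of each list or else its 2 most abundant, the 20 leading genes of the members with at least 50 CPM, and up to 5 genes of each interaction. Rule genes, tdTomato, sex-linked, haemoglobin and unnamed models were left out of the largest differences. Other genes named with values were chosen after their values were seen. The members and lists were chosen with earlier results of these data known. Alternatives were another normalisation, no filter on low counts, thinning to 5000 UMIs, a stricter rule, equal cell numbers, a tdTomato match, doublet removal and the omission of libraries.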

Additional observations from a re-analysis of the deposited data

Results flagged for a closer look

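Among 118 sets of 4 Tet-TKO values tested for 1 library far from the others, 5 exceeded Dixon's critical value at the 95% level, and chance marks about 1 in 20 such sets. The ratio of gap to range was 0.857 for Rrm2 (285, 282, 248 and 288 CPM) and 0.838 for Snhg14 (102, 100.6, 94.9 and 101 CPM), with library 3 the low one in both. It was 0.833 for Rbp4, 0.836 for Ttr and 0.830 for Wnt5a (72.6, 92.8, 71.3 and 68.5 CPM), with library 2 the high one in each.

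The genotype difference in the mesenchyme was unlike that in Tbx4 allantois cells, by the edgeR interaction test, for Tmem158 (2.29 on the log2 scale), Hoxd9 (2.07), Hspb8 (-2.12), Cxcl12 (-1.98) and Slc2a3 (-1.96). Against Hand1 Bmp4 Foxf1 mesoderm cells it was unlike for Apoa1 (3.82), Rbp4 (3.81), Rhox5 (2.21), Hoxd9 (2.17) and Sparcl1 (2.0). Each is the mesenchyme's log2 fold change of Tet-TKO against WT host minus that of the other cells.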

How the results depend on the processing

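Gene counts moved with the libraries of both genotypes. Of 20 higher and 67 lower genes, leaving out 1 library at a time gave 0 to 25 and 0 to 97. The lowest counts came without 1 of the 2 WT host libraries. DESeq2 called 83 higher and 209 lower, no filter on low counts gave 230 and 309, and equal cell numbers gave 12 higher. Thinning to 5000 UMIs per cell gave 16 higher and 62 lower. Of the 87 called genes 59 were tested at that depth, and 38 were still called. The gene lists were not summarised on thinned cells. Chosen after the data were seen, summing Tet-TKO library 1 with 2, and 3 with 4, gave 6 higher and 47 lower, the fit without libraries 3 and 4 gave 86 and 240, and that without libraries 1 and 2 gave 494 and 466. The cause was not tested.

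The labels do not say whether a replicate number marks a shared pool of chimaeras, and 2 pairs cannot settle it. Deviations of same-numbered libraries correlated at 0.142 and -0.0432, where those of the WT host libraries mirror each other by construction. With the replicate number as a block 85 genes were higher and 240 lower, of which 83 were among the 87, and the log2 ratio of shares was 1.21. Tet-TKO libraries 3 and 4 have no WT host library of the same number, so they drop out of both comparisons.

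Differences from allantois (146 genes) became 336 without the filter, 63 at 5000 UMIs per cell, 317 with no minimum fold change and 8 to 170 without 1 library. Those from Hand1 Bmp4 Foxf1 mesoderm (54) became 182, 11, 164 and 8 to 60. The log2 ratio of shares (1.61) ran from 0.50 to 1.89 over all alternatives. No call of a named gene reversed. Of the 87 called genes, each one tested again kept its sign in every alternative, except 1 of 86 with members under 1% haemoglobin UMIs.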
